A study of Mus musculus with 2 samples.

Results

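Tyrosine hydroxylase (Th) and 9 further genes of catecholamine synthesis, storage, uptake and cofactor supply were described in 2 pools of Purkinje cells, the GABAergic output neurons of the cerebellar cortex. The 10 genes were found by symbol among 43346 mouse genes in the gene tables, and all 10 were present. They were selected on the measured TPM of Th, which differed more between the pools than that of the other genes, so the pool difference of Th is given below as a description and not as a test. Each pool held 50 cells of adult male wild-type C57Bl6 mice (strain B6NCrl in the labels) aged 8 months, with no treatment and no second genotype. The labels give 1 group with replicate numbers 1 and 2, called pool 1 and pool 2 here, link both to a laser capture procedure, and name 1 donor for 2 biosamples. Separate animals are therefore not established, and differences between pools may be technical. A Smart-seq protocol is linked for pool 2 alone, so the pools may also differ in how the libraries were made, which cannot be told apart from the pool. In a pool, many cells with little of an RNA and few cells with much of it cannot be told apart, nor can fewer cells of a type and less RNA per cell.

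Catecholamines are made from tyrosine. Tyrosine hydroxylase makes L-DOPA in the rate-limiting step with tetrahydrobiopterin (BH4) as its cofactor, aromatic L-amino acid decarboxylase (Ddc) turns L-DOPA into dopamine, and dopamine beta-hydroxylase (Dbh) turns dopamine into noradrenaline. The vesicular monoamine transporter (Slc18a2) loads the product into vesicles, and the plasma membrane transporters for dopamine (Slc6a3) and noradrenaline (Slc6a2) take it back up. In the mouse cerebellum, TH protein is known in noradrenergic fibres, and TH protein and Th RNA are known in subsets of Purkinje cells.

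The Th gene lies on the minus strand of chromosome 7 (142892752 to 142931128, mouse build GRCm38, which is mm10). It has 6 annotated transcripts, and the first junctions of 3 of them are shown because they show how the transcripts differ at their start. The main coding transcript, Th-201, has 13 exons and starts at 142900014. Th-203, annotated as a target of nonsense-mediated decay, joins exon 1 to a later point in exon 2. Th-206 starts 31.1 kb further upstream and joins that distant exon to exon 2. The junction printed for Th-201 is also that of Th-204, which differs from Th-201 further downstream, while those of Th-203 and Th-206 are in no other annotated Th transcript. In each sequence the capitals mark the 15 bases after the junction and the lower case the 15 bases before it. They were read from the GENCODE M21 transcripts, whose lengths for these 3 transcripts equal the deposited ones.
Th-201: gccgaggctgtcacgTCCCCAAGGTTCATT
Th-203: gccgaggctgtcacgGGGTACAAAACCCTC
Th-206: catctggtgtccgagTCCCCAAGGTTCATT

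The region just before the Th-201 start is shown because it is the promoter of the transcript that received the Th reads. It covers 231 bases of RefSeq sequence (GRCm38.p6, chr7:142900015-142900245, minus strand), with 2 motif matches in capitals.
Th promoter: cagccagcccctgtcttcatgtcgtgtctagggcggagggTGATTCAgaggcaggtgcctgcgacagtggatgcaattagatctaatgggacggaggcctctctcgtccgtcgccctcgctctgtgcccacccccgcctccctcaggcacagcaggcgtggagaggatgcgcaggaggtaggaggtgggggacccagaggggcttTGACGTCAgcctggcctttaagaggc
The match nearer to the start is the cyclic AMP response element (CRE, letters TGACGTCA), 26 bases upstream of the Th-201 start, and the other is an AP-1 element (letters TGANTCA), 191 bases upstream. In windows of 250 bases before and 50 after each RefSeq start, searched on both strands, the CRE was in 1.79% of 32851 windows and the AP-1 element in 7.81%. RefSeq windows were found for 9 of the 10 genes. The CRE was in that of Th and that of Slc18a2 and in none of the others. The AP-1 element was in those of Th and Ddc. A match describes the letters only.

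Th was low in pool 1 and among the well expressed genes in pool 2. It had 56 expected counts in pool 1 and 3371 in pool 2. Its deposited TPM (the gene's share of all transcripts, corrected for length) was 1.63 in pool 1 (95% exact Poisson interval 1.23 to 2.12) and 77.4 in pool 2 (74.8 to 80.1). These intervals, like all counting intervals and limits below, leave out every error but counting, and amplified reads without molecular identifiers do not count molecules. The confidence bounds deposited with the TPM, whose level is not stated, were 1.52 to 2.78 and 73.9 to 79.4. Th exceeded 50.7% of the protein-coding genes in pool 1 and 92.8% in pool 2. The TPM ratio was 47.5-fold in favour of pool 2 (95% exact counting interval 36.5 to 63.02), and the ratio on the log2(TPM + 1) scale was 4.90. The mean over the pools was 39.5 ± 53.6 TPM (SD, n = 2), an SD larger than the mean, and describes neither pool. With 1 group there is no test of this difference.

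**Figure D1:**
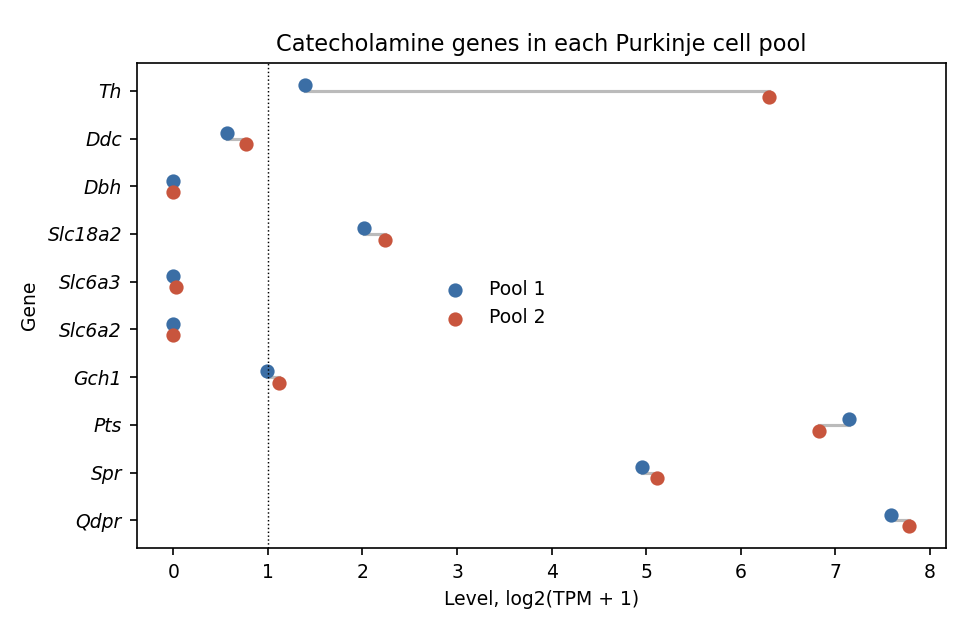
Levels of the 10 catecholamine genes as log2(TPM + 1), 1 row per gene, with blue points for pool 1 and red points for pool 2 and a dotted line at a TPM of 1. The points of Th lie at TPM values of 1.63 and 77.4, while the other 9 pairs lie close together.

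All Th reads in both pools were assigned to Th-201. That transcript took 100% of the gene's TPM in each pool, with 56 and 3371 expected counts. The other 5 annotated transcripts, of which 2 start at the distant upstream exon and 3 are annotated as targets of nonsense-mediated decay, had no expected counts in either pool. The deposited model of Th-202 differs in length from the M21 model (1996 against 1950 bases), so its junction is not shown. By the deposited posterior mean TPM, Th-201 held 1.30 of 2.13 TPM in pool 1 and 75.3 of 76.6 TPM in pool 2. The share in pool 1, with 56 counts, is therefore less settled. The assignment was made by the authors' estimation, and no junction reads were counted here.

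**Figure D2:**
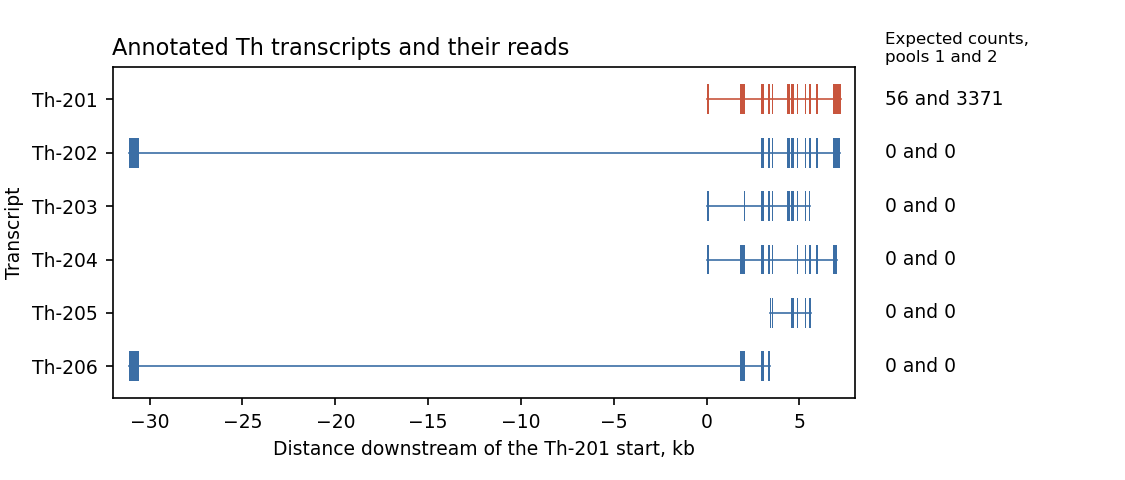
Exons (boxes) of the 6 annotated Th transcripts by distance from the Th-201 start in kb, with the expected counts of pools 1 and 2 at the right. Th-201 in red holds 56 and 3371 counts, and each of the other 5 holds 0 in both pools.

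The enzymes that act after tyrosine hydroxylase were at or near the detection limit in both pools. Ddc had 8 expected counts and 0.480 TPM in pool 1 (95% interval 0.207 to 0.946), and 21 counts and 0.700 TPM in pool 2 (0.433 to 1.07). The ratio of the pools was 1.46 with a counting interval of 0.621 to 3.81, so no difference in Ddc was detectable at this depth. Of these few reads, 7 in pool 1 and 10.2 in pool 2 were assigned to Ddc-206, annotated as a processed transcript without a coding sequence. The coding transcript Ddc-201 (chromosome 11, 11814101 to 11898044) held 0 and 10.8 expected counts. Dbh (chromosome 2, 27165233 to 27183200) had 0 counts in both pools. At the deposited gene length, the limit of 3 counts stood at 0.118 TPM in pool 1 and 0.0932 TPM in pool 2. The deposited upper bounds of Dbh were higher, at 1.42 and 1.11 TPM. Pnmt, which makes adrenaline, had 1 count in pool 1 and 0 in pool 2.

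The transporters fell into a detected vesicular form and plasma membrane forms without signal. Slc18a2 (chromosome 19, 59260896 to 59296012) had 3.05 TPM in pool 1 (224 counts, 95% interval 2.66 to 3.48) and 3.72 TPM in pool 2 (347 counts, 3.34 to 4.13). Pool 2 was higher by 1.22-fold (counting interval 1.03 to 1.45). Slc6a3 (chromosome 13, 73536747 to 73578672) had 0 counts in pool 1 and 2 in pool 2. Slc6a2 (chromosome 8, 92960079 to 93001667) had 0 counts in both pools, with limits of 0.0331 and 0.0261 TPM. Its deposited upper bounds were 0.0577 and 0.0466 TPM. The vesicular transporter of endocrine cells, Slc18a1, stayed at 0.230 and 0.170 TPM. Of 4 low-affinity amine transporters none reached 1 TPM in a pool. Slc29a4, the plasma membrane monoamine transporter, led them with 0.620 and 0.930 TPM.

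The BH4 cofactor genes covered a wide range of levels, with the entry enzyme lowest. GTP cyclohydrolase (Gch1; chromosome 14, 47153895 to 47189413), the rate-limiting enzyme of BH4 synthesis, had 0.980 TPM in pool 1 (52 counts, 95% interval 0.732 to 1.29) and 1.17 TPM in pool 2 (79 counts, 0.926 to 1.46). Pts (chromosome 9, 50521617 to 50528724), which makes the next intermediate, had 141 and 113 TPM. Spr, sepiapterin reductase (chromosome 6, 85130176 to 85137766), which completes BH4, had 29.9 and 33.7 TPM. Qdpr (chromosome 5, 45434021 to 45450236), the dihydropteridine reductase that regenerates used BH4, had 192 and 218 TPM and was the highest of the 10 genes in both pools. Of the protein-coding genes, 96.9% lay below Qdpr in pool 1 and 97.3% in pool 2, 95.6% and 94.7% lay below Pts, and 46.6% and 48.1% lay below Gch1.

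These 4 genes differed little between the pools. On the log2(TPM + 1) scale, pool 2 minus pool 1 was 0.13 for Gch1, 0.19 for Qdpr, 0.17 for Spr and -0.32 for Pts, with a median of 0.15. Over the 13210 genes with a mean TPM of 1 or more the median was -0.07. Pts turned to 0.34 with the spike-ins as the scale, which adds 0.66 to every ratio. The counting intervals of the TPM ratio were 0.831 to 1.73 for Gch1, 1.10 to 1.18 for Qdpr, 1.02 to 1.25 for Spr and 0.758 to 0.845 for Pts. For Spr the share of the transcript Spr-203 was 3.51% in pool 1 and 9.88% in pool 2, beside 94.5% and 90.1% for Spr-201.

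By the mean of the pools the order of levels was Qdpr (205 ± 18.7 TPM), Pts (127 ± 19.9), Th, Spr (31.8 ± 2.66), Slc18a2 (3.38 ± 0.474), Gch1 (1.07 ± 0.134), Ddc (0.590 ± 0.156) and Slc6a3 (0.0100 ± 0.0141), all SD with n = 2, followed by Slc6a2 and Dbh at 0. The ranges of the neighbours Th and Spr over the pools overlapped, and Th held place 5 in pool 1 and place 3 in pool 2. The values of Slc6a3, Slc6a2 and Dbh could not be ordered. The other neighbours did not overlap in these 2 pools.

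Of the 10 genes, 5 reached 1 TPM or more in each pool (Th, Slc18a2, Pts, Spr and Qdpr), and 6 had a mean TPM of 1 or more. Past a 2-fold ratio on the log2(TPM + 1) scale stood 1 of them, Th. Of the 13210 genes at that mean level, 2.79% were past 2-fold in either direction 1.39% were higher in pool 2 and 1.40% were lower. The choice of Th used this contrast, so nothing is read from the count. Th had the largest absolute ratio of all 13210 genes. For the 6453 genes with a mean TPM of 10 or more, the central 95% ran from -0.75 to 0.52 on this scale.

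**Figure D3:**
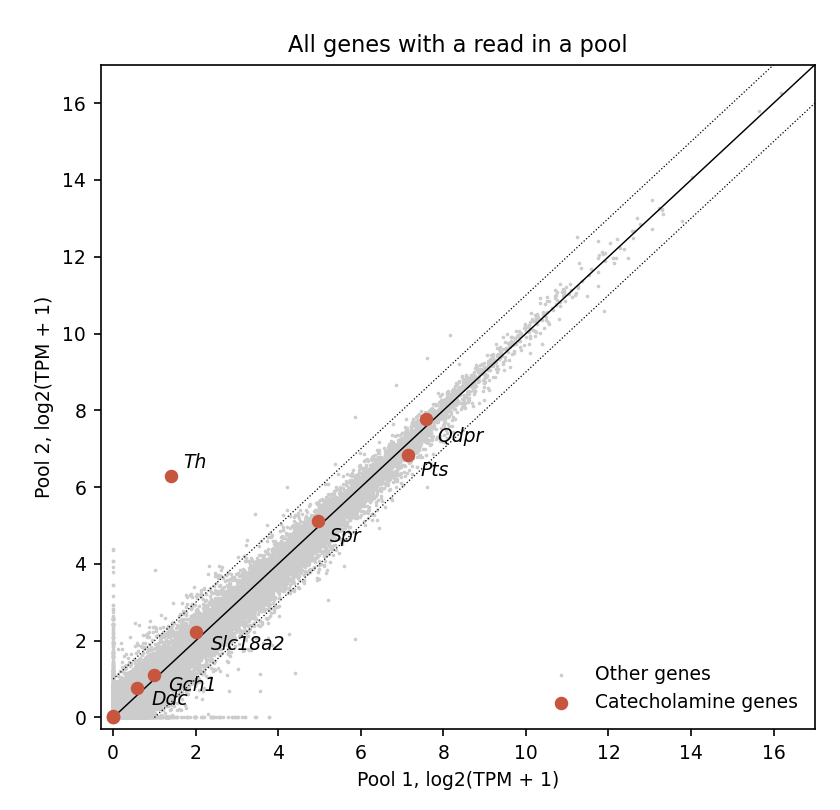
Level in pool 2 against pool 1 as log2(TPM + 1) for genes with a read in a pool (grey), with the 10 catecholamine genes in red, a solid line at equal levels and dotted lines at a 2-fold ratio. Th stands above the dotted line with a ratio of 4.90, and the other 9 lie between the dotted lines, with Dbh, Slc6a2 and Slc6a3 at or next to the origin.

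The genes with the nearest ratios lay far below Th. Among 6090 further nuclear protein-coding genes with a mean TPM of 10 or more, the 5 whose log2(TPM + 1) ratio over the 2 pools was nearest to that of Th were Hbb-bt (1.97), Prkcd (1.87), Hba-a1 (1.80), Hba-a2 (1.79) and Zfp973 (1.79). Prkcd, a protein kinase C of the delta type, had 9.83 TPM in pool 1 and 38.6 TPM in pool 2. Hbb-bt, Hba-a1 and Hba-a2 are globin genes of red blood cells. The TPM of Hba-a2 was 285 and 991, and that of Hba-a1 was 114 and 400.1. Zfp973 (17.5 and 63.2 TPM) and the globins have close copies that may take or give reads, which makes their values uncertain.

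Some further genes of the pathway were detected in both pools. In 9 lists of other catecholamine genes, 63 of 64 names were found in the tables and 32 were detected, with 1 TPM or more in each pool. Higher in pool 2 past 2-fold were 2 of these 63 genes, and none was lower. Of the 63 genes, 32 had a mean TPM of 1 or more. Of all 13210 genes at that level, 1.39% were past 2-fold higher and 1.40% lower. The count depends on the scale: Adra2b, with a ratio of 0.97, had 1.20 with TMM and 1.62 with the spike-ins. No lean of the pathway towards a pool is read from it. Pcbd1, which recycles the pterin product of the hydroxylases, was 1 of the 2 genes. It had 16.2 TPM in pool 1 (229 counts) and 37.8 TPM in pool 2 (675 counts), a log2(TPM + 1) ratio of 1.17.

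All 5 other BH4 genes were detected. Besides Pcbd1 they included Cbr1, a carbonyl reductase (109 and 123 TPM), Pcbd2 (66.4 and 69.4) and Gchfr, the feedback regulator of GTP cyclohydrolase (52.2 and 52.8). In TPM, Gchfr thus stood far above its target Gch1 in both pools. Of 4 other BH4-dependent enzymes 1 was detected, the ether lipid monooxygenase Agmo (5.38 and 4.54 TPM). Tph2, which starts serotonin synthesis in the brain, had 0.700 and 0.610 TPM, and Tph1 had 0 and 0.190 TPM.

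Proteins that bind or handle tyrosine hydroxylase were well expressed. The 14-3-3 genes, whose products bind phosphorylated TH, led, with Ywhaz at 621 and 543 TPM, Ywhae at 529 and 475, and Ywhag at 64.9 and 66.7. Dnajc12, a co-chaperone of the aromatic amino acid hydroxylases, had 31.6 and 29.2 TPM. Cyb561, which supplies electrons to dopamine beta-hydroxylase in vesicles, had 10.4 and 10.6 TPM. For the pyridoxal phosphate cofactor of Ddc, Pdxk, which phosphorylates its precursors, had 7.56 and 6.27 TPM.

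All 8 enzymes of catecholamine breakdown were detected, and none was past 2-fold. The highest was Akr1a1, an aldehyde reductase (302 and 375 TPM). Akr1b3 had 110 and 120 TPM and the aldehyde dehydrogenase Aldh1a1 52.8 and 51.1. The monoamine oxidases were lower, with Maoa at 14.5 and 10.4 TPM and Maob at 9.07 and 8.73. Aldh2 had 8.92 and 9.53 TPM and Sult1a1, a sulfotransferase, 2.99 and 4.16.

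Of 18 transcription factors known from catecholamine neurons or from the control of Th, 5 were detected in both pools and 8 had no counts in either. The detected ones included Creb1, which binds the CRE (12.1 and 9.43 TPM), Atf1 (6.80 and 7.22), En2 (2.15 and 2.52) and En1 (1.92 and 3.19). En1 had the largest ratio of the 5, at 0.52. Nr4a2 stayed under 1 TPM in both pools, Pitx3 had 0 and 0.120 TPM, and Lmx1a, Foxa2 and Phox2a had no counts. Of 14 catecholamine receptors 5 were detected, 3 of them higher and 2 lower in pool 2. Adra2b (2.76 and 6.34 TPM) and Drd4 (2.29 and 4.18) had ratios of 0.97 and 0.65, while Adra1a, the highest receptor in pool 1, had 2.88 and 2.01 TPM, a ratio of -0.37.

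**Figure D4:**
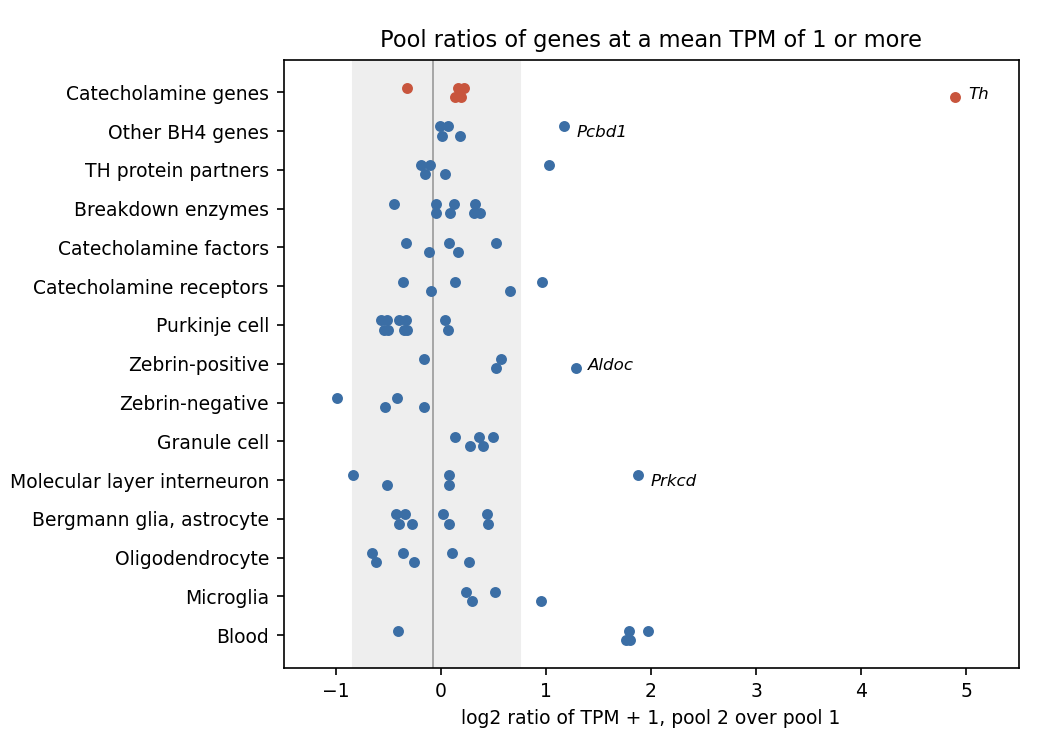
Ratios of pool 2 to pool 1 (log2 of TPM + 1) for genes with a mean TPM of 1 or more, 1 row per list, with the 6 of the 10 catecholamine genes that reach this level in red. The grey band is the central 95% of 13210 genes and the grey line their median of -0.07, and Th lies at 4.90, beyond the globins of the blood list near 1.8.

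The pools were checked against cell type markers. They held 23830685 expected counts in pool 1 and 27907662 in pool 2. All 10 Purkinje cell markers were detected, with 64.4 to 17167 TPM. Their summed level was 32473 TPM in pool 1 and 30514 in pool 2. Pcp4 (16756 and 17167 TPM) and Pcp2 (6245 and 6524) held most of that sum and were higher in pool 2. The other 8 markers were lower in pool 2, and the median log2(TPM + 1) ratio of the list was -0.37. Markers of catecholamine neurons were mostly absent: of 8 noradrenergic genes 4 had no counts in either pool, Dbh, Slc6a2 and Phox2a among them, and only Slc18a2 and Gal (9.78 and 7.32 TPM) were detected. Of 8 dopaminergic genes Slc18a2 alone was detected, and of 5 serotonergic genes none. The summed levels of these lists in pools 1 and 2 were 13.5 and 11.2 TPM, 3.05 and 3.89 TPM, and 0.780 and 0.690 TPM. Th was chosen for its difference between the pools, so nothing is read from setting these sums beside it.

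The summed markers of several other cells were higher in pool 2 beside Th, and their part in the Th difference was not tested. Blood markers, all 5 detected, summed to 651 TPM in pool 1 and 2274 in pool 2. Nearly all of this came from the 4 globins, which were higher in pool 2, while Alas2, the heme synthesis enzyme of red cell precursors, had 2.22 and 1.43 TPM. Granule cell markers (5 of 7 detected) summed to 107 and 137 TPM, microglial markers (3 of 6) to 16.5 and 26.4, molecular layer interneuron markers (5 of 6) to 47.6 and 66.5, and unipolar brush cell markers (1 of 3) to 2.45 and 3.64. The higher interneuron sum came from Prkcd (9.83 and 38.6 TPM), which is also among the 5 genes picked as nearest to Th in ratio. In the same list Nxph1 had 16.4 and 11.2 TPM, Kit 11.6 and 6.04, and Tfap2b 8.37 and 8.89. Of the 5 detected interneuron markers 3 were higher and 2 lower in pool 2, with a median ratio of 0.08. No gain of interneuron RNA in pool 2 is read from the sum. Oligodendrocyte markers (6 of 6) summed to 218 and 213 TPM. Bergmann glia and astrocyte markers (8 of 8) summed to 3982 and 4338 TPM, with 4 higher and 4 lower in pool 2 and a median ratio of -0.13. The higher sum came from Apoe (1825 and 2492 TPM), while Slc1a3, a glutamate transporter, had 1083 and 852 TPM.

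Markers of the parasagittal Purkinje cell bands also differed. The zebrin-positive list, named for aldolase C (zebrin II), summed to 2550 TPM in pool 1 and 6034 in pool 2, of which Aldoc held 2409 and 5861. The ratio of Aldoc on the log2(TPM + 1) scale was 1.28, against 4.90 for Th. Slc1a6 (69.9 and 104 TPM) and Plcb3 (7.85 and 11.8) were also higher in pool 2, while Gabbr2 (63.3 and 56.7) was lower. The median ratio of the zebrin-positive list was 0.55. The zebrin-negative list summed to 710 and 478 TPM. Its median ratio was -0.48, beside -0.37 for the 10 Purkinje cell markers. Each list has 4 genes, and whether the band make-up of the pools bears on Th was not tested.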

How the data were processed

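RNA was measured by RNA-seq with ERCC spike-ins in 2 pools of Purkinje cells. Genes and transcripts were quantified by the authors from transcriptome alignments to mm10 with GENCODE M4, per the file headers and the notes deposited with them. Aligner, quantification tool and strand setting: not given in the sources used here. Expected counts, as deposited, are estimated reads without normalization. TPM values, as deposited, sum to an equal total per library with spike-ins included. Isoforms were described by the percent of the gene's TPM that the authors gave each transcript. The deposited posterior mean TPM and its confidence bounds were treated as a signal on the TPM scale.

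Symbols and coordinates came from GENCODE M21, also on mm10, with names for 42462 of 43346 mouse genes. No Th transcript overlaps another annotated gene. A gene was detected at 1 TPM or more in each pool, ratios were taken on log2(TPM + 1), which understates those of low genes, and a 2-fold ratio was the threshold. Counting intervals are exact at 95%, and 3 counts set the limit where there were none. With 1 group no test between conditions was possible. Expected counts were rounded for the edgeR 4.0.16 TMM and DESeq2 1.42.0 scalings in R 4.3.3. Values were computed with scipy 1.17.1 and pandas 2.3.3 and plotted with matplotlib 3.10.9. The ratio was tried on simulated data for 6453 genes, the number with a mean TPM of 10 or more. Of 200 genes changed 4-fold among them, 99% passed 2-fold, as did 1.30% of the unchanged genes. These shares depend on the settings of the simulation and are not an error rate for these 2 pools. Its spread between pools was fixed and not estimated from these data. The simulated ratios were also centred on their median before the threshold, while those of the data were not. The shares also do not cover genes of lower mean TPM, to which the threshold was applied as well.

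The 10 genes, the lists and the naming rule were chosen with earlier results of these data known. Named are all 10 genes, list genes at 10 TPM or more, detected factors and catecholamine neuron markers, and the 5 genes nearest to Th in ratio. Some marker genes are given only in the sum of their list. Values of some list genes are not reported here, though counts and sums of the lists include them.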

Additional observations from a re-analysis of the deposited data

How the results depend on the processing

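The Th log2 ratio of 4.90 kept its direction under all 8 alternatives. It was 5.49 with a pseudocount of 0.1 and 5.56 on the spike-in scale, and ran from 4.63 to 5.18 under the other 6 (CPM, TMM, DESeq2 size factors, posterior mean TPM, adjustment for transcript length and level, and TPM rescaled over mouse genes). The mean level of Th rests on pool 2: leaving out a pool gave 1.63 to 77.4 TPM. The count of the 10 genes detected was 5, fell to 3 at a TPM of at least 5, and was 5 to 6 with a pool left out. The count of other pathway genes detected was 32, fell to 21 at a TPM of at least 5, and was 32 with either pool left out. Th alone of the 10 was past 2-fold under each of the 5 alternatives tried. The Th-201 share was 100% with either pool left out and by expected counts. These alternatives could not differ, because the other Th transcripts had no expected counts. By posterior mean TPM the share was lower, most of all in pool 1, as given above. The median ratio of the 4 BH4 genes, 0.15, was 0.27 by CPM, 0.25 with TMM, 0.25 with DESeq2 size factors and 0.81 with the spike-ins, and stayed positive in all 6 alternatives. A ratio cannot be had with a pool left out. No paired analysis was possible because there is 1 group. Depth limits Ddc, Gch1, Slc6a3, Slc6a2 and Dbh, with under 100 counts in each pool.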
